A study of Rattus norvegicus with 2 samples.

Results

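The endoplasmic reticulum genes described here are 33 genes of protein folding, of the disposal of misfolded proteins, and of the stress pathway that controls both. They were chosen by name. A gene was measured when the platform annotation assigned a probe set to it and to no other gene, and where several qualified the brightest of them on average represented the gene. By this rule 31 of the 33 genes were measured, among 14217 genes on the array. Derl3 and Ern1 had no such probe set and were not analysed here. The samples were esophageal tissue of male Sprague-Dawley rats, an outbred strain, bought at an age of 5 to 6 weeks. The treated group received 7 gavages of OSU-HDAC42, an inhibitor of histone deacetylases, at 50 mg/kg body weight each and 350 mg/kg in all. The control group received vehicle on the same schedule, and tissue was taken on day 15, which was 24 hours after the last gavage. Each group had 1 Affymetrix Rat Genome 230 2.0 array, and the labels do not say how many rats contributed RNA to it or which layers of the esophagus were taken. No value below therefore has an error between animals, no test was possible, and each difference is one of 2 arrays, not of the conditions.

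Proteins that are secreted or placed in membranes fold in the lumen of the endoplasmic reticulum. Chaperones of the HSP70 and HSP90 families, disulfide isomerases and the lectin chaperones calnexin and calreticulin assist this, and proteins that fail are drawn back through the membrane and degraded. When misfolded proteins accumulate, the sensors IRE1, PERK and ATF6 start the unfolded protein response. IRE1 splices the mRNA of the transcription factor XBP1, ATF6 is itself cut to a transcription factor, and PERK slows translation while favouring that of ATF4. XBP1 and ATF6 act mainly on chaperone and degradation genes, and ATF4 on genes of amino acid supply and, through CHOP, of cell death. The stratified epithelium of the esophagus, its fibroblasts and its muscle all use this machinery.

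All 31 measured genes lay above the expression floor, an intensity of 49.1, which was the median of all probe sets outside the array controls and which a gene had to reach on 1 array or both. With OSU-HDAC42, 21 of the 31 were lower and 10 higher than with vehicle. That is 67.7% lower, against a background of 52.8% lower among the 9561 genes above the floor. The differences were small. Their median was -0.079 on the log2 scale, against -0.027 for all genes above the floor, and they ran from -0.83 to 0.61. At least 1.5-fold lower were Herpud1 and Trib3, 2 of 31, where the background was 10.9%, and 1 gene, Atf6, was at least 1.5-fold higher, where the background was 7.59%. With quantile normalization Atf6 stood at 0.57, just short of that fold, and the counts were 2 lower and 0 higher. No member reached 2-fold, a size that 3.18% of genes reached downward and 1.88% upward. As counts, the members were thus not past these folds more often than other genes.

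**Figure D1:**
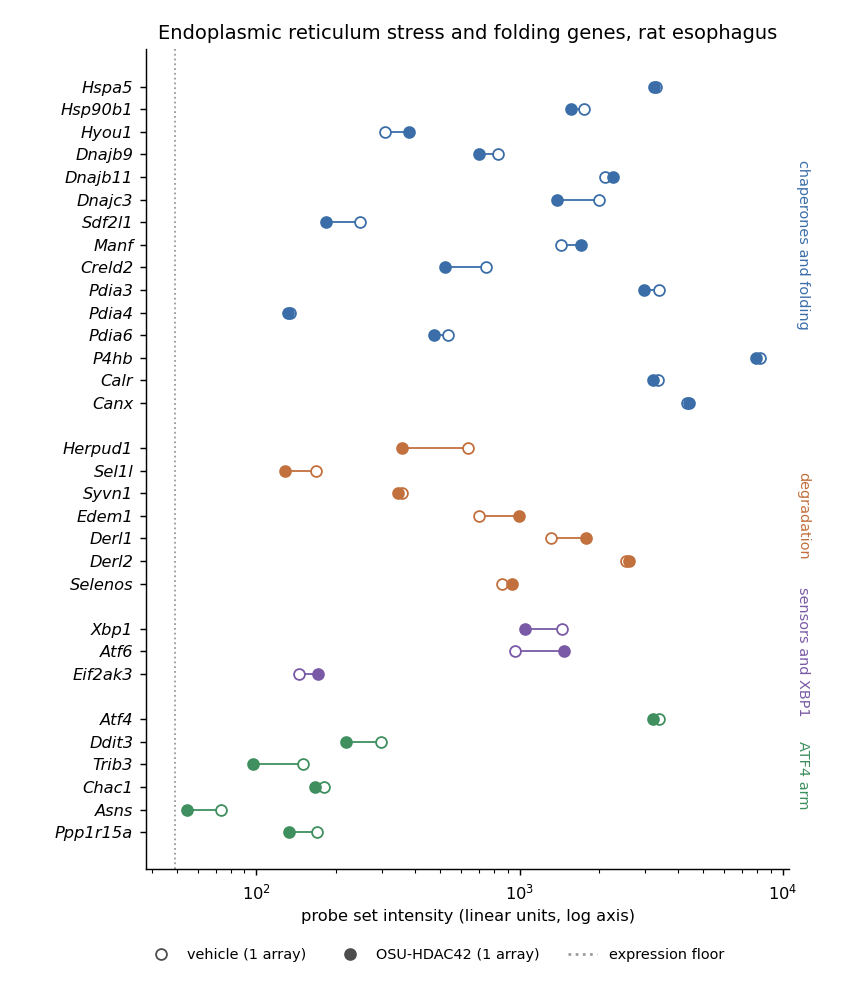
Intensity of each of the 31 measured genes on the vehicle array (open circles) and the OSU-HDAC42 array (filled circles) on a log axis, with the genes grouped by role. The dotted line is the expression floor of 49.1, and all points lie to its right, with Asns closest at 54.7 and 73.4.

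Probe sets of the same gene, both above the floor, differed from each other in their log2 difference with an SD of 0.41 over 3643 pairs. This is the SD of the gap between 2 probe sets, not of 1 probe set, and it does not cover variation between animals. Where both probe sets reached an intensity of 277, it was 0.32 over 1127 pairs. Past 0.41 were 11 of the 31 members, 8 lower and 3 higher, against 18.3% lower and 13.6% higher among all genes above the floor. The spread of differences narrowed with the signal, from an SD of 0.62 in the lowest to 0.30 in the highest of 4 level bins with equal numbers of genes above the floor, and 14 of the members lie in the highest bin. Among the 5595 genes that reached an intensity of 277, the 75th percentile of probe sets, 49.9% were lower. Of the 23 members that did so, 14 (60.9%) were lower. The 3' over 5' ratio of the beta-actin control, a sign of RNA integrity, was 6.29 in the OSU-HDAC42 sample and 7.76 in the vehicle sample. That of the GAPDH control was 2.09 and 2.32. The part of RNA integrity in the differences was not tested.

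The samples also differed in markers of their cell types, and in bulk tissue fewer cells of a type and less RNA per cell cannot be told apart. All 17 measured skeletal muscle markers of 18 listed were above the floor and lower after OSU-HDAC42, and their summed intensity was 16474 against 33675. Smooth muscle markers were higher in 9 of 9 cases, with sums of 12105 and 7538, and fibroblast markers in 8 of 9, with sums of 21241 and 16995. Markers of the epithelium, which identify the tissue, were above the floor throughout. The sums were 29842 and 30840 for 7 of 7 basal keratinocyte markers, and 46715 and 45620 for the 9 measured of 10 suprabasal markers. Single markers differed more than these sums. Of the basal markers 6 of 7 were lower, among them Itgb4 by 2.43-fold, and of the suprabasal markers 5 were lower and 4 higher, with Sprr1b 4.61-fold higher, Krt10 2.06-fold higher and Evpl 1.61-fold lower. Endothelial markers were lower in 5 of 7 cases, with a median of -0.73 and sums of 2979 and 3012. Macrophage markers were higher in 6 of 7, with sums of 1430 and 982. The 2 mast cell markers above the floor, of 5 measured, were both higher, with sums over the list of 228 and 110. The part of these shifts in the differences of the endoplasmic reticulum genes was not tested.

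Several members are textbook targets of the stress response through short elements near their start. Because the members were chosen by name with such targets among them, a high share of matches describes that choice and is no separate evidence. The elements were searched as exact letters, on both strands, in the windows of 300 bases (250 before to 50 after each RefSeq start, build GRCr8) that were given for 27 of the 33 members. The ER stress response element, ERSE, is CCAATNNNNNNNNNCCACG, where the first part is read by NF-Y and the second by ATF6 or XBP1. It was found in 8 of 27 members (29.6%) and in 0.0765% of all 27457 genes with a window. ERSE-II, ATTGGNCCACG, was found in 3 of 27 members (11.1%) and in 0.0619% of all genes. No member held both, so that 11 of 27 members (40.7%) had one of them. A match is a description of letters and not of binding. The promoter of Hspa5 shows the ERSE 43 to 25 bases before the start, and that of Herpud1 shows an ERSE-II at 124 to 114 bases before the start. Both are printed on the strand of their gene, with the fixed letters of ERSE and ERSE-II in capitals. They span chr3:38452766-38453015 on the plus strand and chr19:10614708-10614957 on the minus strand. In Herpud1 the 9 capitals further left, 185 to 177 bases before the start, are the whole reverse complement of a CARE, the element read by ATF4 with a C/EBP partner.
Hspa5: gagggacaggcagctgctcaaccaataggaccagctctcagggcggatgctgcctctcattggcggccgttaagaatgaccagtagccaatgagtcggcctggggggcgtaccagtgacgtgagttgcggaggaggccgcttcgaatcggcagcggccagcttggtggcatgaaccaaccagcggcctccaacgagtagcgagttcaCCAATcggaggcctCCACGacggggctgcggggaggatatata
Herpud1: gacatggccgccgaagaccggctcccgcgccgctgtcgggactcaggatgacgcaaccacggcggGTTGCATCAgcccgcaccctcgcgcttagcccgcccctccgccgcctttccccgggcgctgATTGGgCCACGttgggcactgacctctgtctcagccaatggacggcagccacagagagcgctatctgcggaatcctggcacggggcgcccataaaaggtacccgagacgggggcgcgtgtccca

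The other members with an ERSE or ERSE-II are shown around the element only, each with 12 flanking bases on either side and on the strand that reads the element forward, so that the shared letters line up. Fixed letters are in capitals. Coordinates are those of the printed stretch in GRCr8, with its strand. Hsp90b1 held 2 copies of the ERSE and Hyou1 held 2 of the ERSE-II, of which the one nearer the start is shown. Dnajb11 had its ERSE-II across the start itself and is not printed.
Hsp90b1, chr7:23012439-23012481, minus strand: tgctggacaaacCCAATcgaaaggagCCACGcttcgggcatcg
Hsp90b1, chr7:23012335-23012377, plus strand: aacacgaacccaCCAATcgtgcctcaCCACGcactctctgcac
Dnajc3, chr15:102432522-102432564, plus strand: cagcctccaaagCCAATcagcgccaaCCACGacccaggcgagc
Creld2, chr7:121789227-121789269, minus strand: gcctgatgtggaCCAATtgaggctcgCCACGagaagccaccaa
Calr, chr19:40213123-40213165, minus strand: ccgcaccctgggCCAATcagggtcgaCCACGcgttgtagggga
Canx, chr10:35158057-35158099, minus strand: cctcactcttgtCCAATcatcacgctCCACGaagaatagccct
Xbp1, chr14:84604546-84604588, plus strand: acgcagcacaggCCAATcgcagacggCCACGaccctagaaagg
Derl3, chr20:12766589-12766631, plus strand: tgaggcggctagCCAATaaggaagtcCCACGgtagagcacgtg
Hyou1, chr8:53602782-53602816, minus strand: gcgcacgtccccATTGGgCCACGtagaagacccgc

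Of 15 chaperone and folding genes, 11 (73.3%) were lower and 4 higher, against 52.8% lower among all genes above the floor. Of the lower ones, P4hb, Pdia3 and Pdia4 did not keep their sign under every way of processing, so the count depends on values near 0. The median of the 15 was -0.057, and none reached 1.5-fold on its representing probe set. In the highest level bin, which holds 9 of them, 46.7% of all genes were lower. Of those 9, Hspa5, Hsp90b1, Dnajc3, Pdia3, P4hb and Calr were lower, and Dnajb11, Manf and Canx were higher. Hspa5 encodes BiP, the HSP70 of the lumen that also holds the sensors inactive. Its intensity was 3235 in the OSU-HDAC42 sample and 3297 in the vehicle sample, a difference of -0.027. Hsp90b1, which encodes the HSP90 of the lumen (GRP94), stood at 1562 and 1755 (-0.17). Hyou1, a nucleotide exchange factor of BiP, stood at 379 and 308 (0.30). Its other probe set gave 40.0 and 21.1, below the floor on both arrays, and with the mean of both probe sets Hyou1 differed by 0.61, past 1.5-fold, so that the members at least 1.5-fold higher then numbered 2.

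The J proteins that work with BiP went in both directions. Dnajc3, which encodes a J protein also known as an inhibitor of PERK, had the largest difference among the chaperones, with 1390 against 2009, a difference of -0.53 or 1.45-fold lower. Dnajb9, a J protein that brings BiP to IRE1, stood at 704 against 825 (-0.23). Dnajb11, a J protein that delivers misfolded clients to BiP, was slightly higher at 2262 against 2108 (0.10). Sdf2l1, a component that acts with Dnajb11, stood at 183 against 249 (-0.44).

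Manf and Creld2 encode small luminal proteins that are induced by and secreted under stress, and they went in opposite directions. Manf had an intensity of 1712 in the OSU-HDAC42 sample and 1441 in the vehicle sample, which is 1.19-fold higher. Creld2 had 520 and 746, which is 1.43-fold lower.

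The disulfide isomerases, which form and rearrange disulfide bonds in the lumen, differed little. P4hb, the founding member of the family and also a subunit of the collagen prolyl hydroxylase, stood at 7949 and 8206 (-0.046). Pdia4 stood at 132 and 135 (-0.028) and Pdia6 at 472 and 534 (-0.18). All 3 were lower, each by less than the SD between probe sets. Pdia3, which works on glycoproteins with the lectin chaperones, was lower on its brighter probe set, at 2964 and 3379 (-0.19), and higher on the other, at 895 and 626 (0.52). Its direction therefore depends on the probe set, and with the mean of both it differed by 0.16.

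The lectin chaperones, which hold glycoproteins until they have folded, were alike in the samples. The soluble calreticulin, Calr, stood at 3219 and 3348 (-0.057). The membrane-bound calnexin, Canx, stood at 4392 and 4318 (0.025), and its other probe sets differed by 0.062 and 0.22. The plot of differences by role shows these genes as short bars beside Dnajc3 and Creld2.

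**Figure D2:**
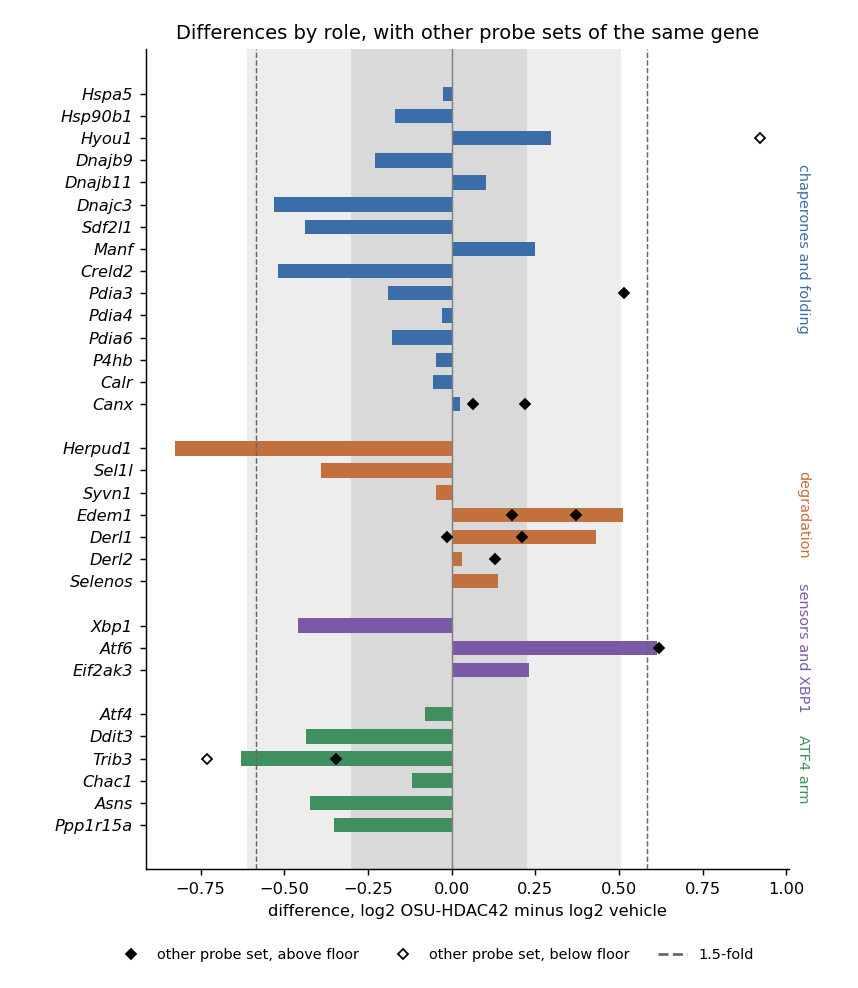
Difference of each measured gene, log2 intensity in the OSU-HDAC42 sample minus that in the vehicle sample, with diamonds for the other probe sets of the same gene. The dark and light grey bands hold the middle 50% and 80% of all genes above the floor, from -0.30 to 0.22 and from -0.61 to 0.50, and the main values of Herpud1, Trib3, Edem1 and Atf6 lie outside the light band.

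The degradation genes split in direction, with 3 of 7 lower (42.9%), 4 higher and a median of 0.032. Among all genes above the floor, 52.8% were lower. Herpud1 had the largest difference of all members. It encodes a membrane protein that assembles the degradation complex and is among the genes most readily induced by stress. Its intensity was 358 in the OSU-HDAC42 sample and 636 in the vehicle sample, a difference of -0.83 or 1.77-fold lower. This is percentile 5.38 of the differences of all genes above the floor, and a single probe set measured the gene.

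The ubiquitin ligase at the centre of the complex differed less than Herpud1. Sel1l, its adaptor, stood at 128 and 168 (-0.39), and Syvn1, which encodes the ligase HRD1 itself, at 346 and 358 (-0.048). Both were lower, Sel1l by close to the spread between probe sets and Syvn1 by far less.

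Edem1 and Derl1 were higher. Edem1 encodes a lectin-like protein that trims mannose from misfolded glycoproteins and hands them to degradation. Its brightest probe set gave 999 in the OSU-HDAC42 sample and 701 in the vehicle sample, 1.43-fold higher, and its other probe sets were higher too, by 0.37 and 0.18. Derl1, a rhomboid-like protein of the exit channel, gave 1782 and 1321 on its brightest probe set (0.43), but its other probe sets differed by 0.21 and -0.013. Their mean put Derl1 at 0.21. Derl2, of the same family, stood at 2603 and 2546 (0.032), with 0.13 on its other probe set. Selenos, a selenoprotein that recruits the ATPase p97 to the membrane, stood at 940 and 854 (0.14).

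Of the genes at the top of the pathway, Atf6 was higher and Xbp1 lower. Atf6 had an intensity of 1471 in the OSU-HDAC42 sample and 961 in the vehicle sample, a difference of 0.61 or 1.53-fold. A second probe set, at 109 and 70.9, gave 0.62. Its difference lies at percentile 93.1 of those of all genes above the floor. Xbp1 stood at 1050 and 1445, a difference of -0.46 or 1.38-fold lower. It had a single value, with none for the spliced mRNA apart. Eif2ak3, which encodes PERK, stood at 171 and 146 (0.23). Levels of mRNA say nothing of the cutting of ATF6 or the phosphorylation of PERK.

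All 6 measured genes of the ATF4 arm were lower, with a median of -0.39. Atf4 itself, which is controlled mainly at translation, was nearly equal at 3216 and 3398 (-0.079). Ddit3, which encodes the transcription factor CHOP, stood at 219 in the OSU-HDAC42 sample and 297 in the vehicle sample, 1.35-fold lower. Trib3, a pseudokinase induced by CHOP that restrains ATF4, stood at 96.9 and 150, a difference of -0.63. Its other probe sets gave -0.35 above the floor and -0.73 below it, and with the mean of those above the floor it differed by -0.49 and no longer reached 1.5-fold. Ppp1r15a, which encodes GADD34, the phosphatase subunit that ends the arrest of translation, stood at 133 and 170 (-0.35).

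The remaining genes of this arm concern amino acids and glutathione. Asns, asparagine synthetase, stood at 54.7 and 73.4 (-0.42). Chac1, an enzyme that breaks down glutathione, stood at 167 and 181 (-0.12). Of the 6 genes, 5 lie in the lower 2 of the 4 level bins, where 56.3% and 57.0% of all genes were lower and the medians were -0.10 and -0.080.

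**Figure D3:**
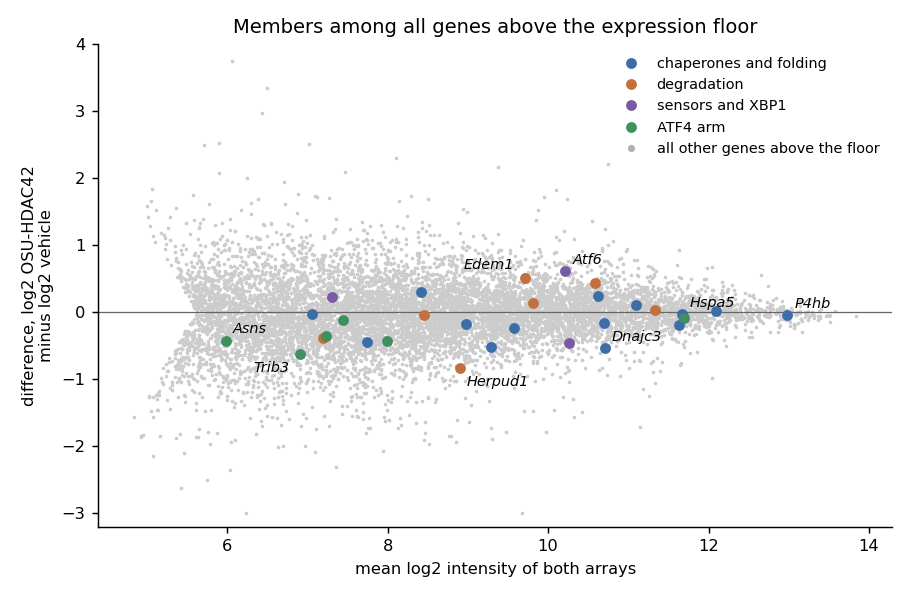
Difference (log2, OSU-HDAC42 minus vehicle) against the mean log2 intensity of both arrays for the members, coloured by role, and for all other genes above the floor in grey. The grey cloud narrows to the right, where P4hb and Hspa5 lie near 0, and all green points of the ATF4 arm lie below 0.

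Members with an ERSE or ERSE-II did not all differ in the same direction or by the same size. Among all genes above the floor 52.8% were lower. Of the 10 measured members with an ERSE or ERSE-II, 7 were lower and 3 higher, with a median of -0.11. They ran from -0.83 for Herpud1 to 0.30 for Hyou1, both of which hold an ERSE-II. Of the 7 measured members with the ERSE itself, 6 were lower, with a median of -0.17 and a range from -0.53 for Dnajc3 to 0.025 for Canx. Of the 3 with an ERSE-II, 1 was lower, with a median of 0.10. The 16 measured members with a window and neither element had a median of -0.10, with 12 lower and 4 higher.

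The CARE was searched as TGATGNAAN, which 4.14% of all genes with a window hold, and was found in 3 of 27 members (11.1%), namely Herpud1, Trib3 and Chac1. All 3 were lower, with differences of -0.83, -0.63 and -0.12. Of the other genes with a CARE, 169 were above the floor, 83 of them lower and 85 higher, with a median of 0.0068. The sites of Trib3 and Chac1, 22 to 14 and 168 to 160 bases before the start, are printed as above with the 9 letters of the element in capitals.
Trib3, chr3:161275535-161275567, plus strand: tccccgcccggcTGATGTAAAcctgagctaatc
Chac1, chr3:126795951-126795983, minus strand: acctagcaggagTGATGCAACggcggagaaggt

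The element UPRE, TGACGTGG, read by XBP1, was found in 1 of 27 members (3.7%), Hyou1, and in 0.681% of all genes. In Hyou1 it overlaps on the opposite strand with the ERSE-II farther from the start. The map of elements places these matches beside the differences of their genes.

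**Figure D4:**
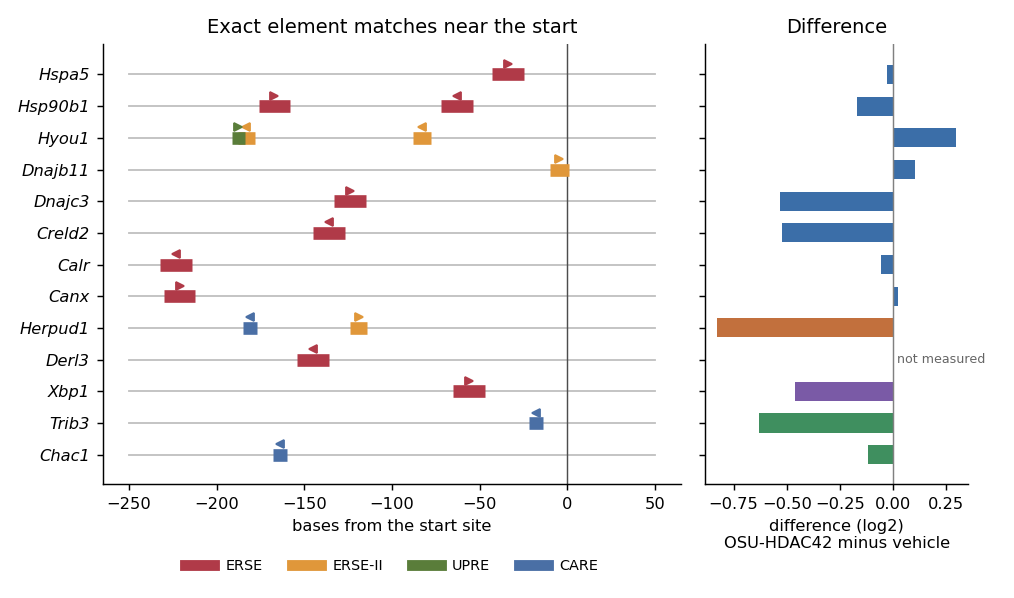
Left, exact matches of ERSE, ERSE-II, UPRE and CARE in the window of 300 bases around the start of 13 members, with arrowheads for the strand relative to the gene. Right, the log2 difference of the same gene, OSU-HDAC42 minus vehicle. Bars on both sides of 0 stand beside both ERSE and ERSE-II, those beside CARE lie below 0, and Derl3 was not measured.

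Other genes of the pathway, taken from fixed lists, were centred near 0. Of 144 genes, 137 were measured and 125 lay above the floor, of which 61 (48.8%) were lower and 64 higher, with a median of 0.0093. Past 1.5-fold, 8 were lower and 5 higher. Among all genes above the floor, 52.8% were lower, 10.9% at least 1.5-fold lower and 7.59% at least 1.5-fold higher.

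Further folding and glycosylation genes had a median of 0.075, with 11 of 24 lower. The largest difference was that of Fkbp11, a prolyl isomerase of the lumen that is abundant in secretory cells, with 61.6 in the OSU-HDAC42 sample and 150 in the vehicle sample, 2.44-fold lower. Prkcsh, the regulatory subunit of glucosidase II, was 1.59-fold lower and Sdf4 1.39-fold lower. Of plasma and B cell markers, 8 of 11 were measured, with sums of 9019 and 9762, of which Sdc1, expressed by epithelium as well, made up 7861 and 8688. Of these, 3 were above the floor, 2 of them lower. Below the floor, Jchain, Ms4a1 and Pou2af1 were under 16 on both arrays, Mzb1 stood at 32.8 on both, and Cd79b at 17.6 and 18.2. The part of such cells in the difference of Fkbp11 was not tested. Higher were Serpinh1, the collagen chaperone HSP47, by 1.47-fold at 1044 against 712, Txndc11 by 1.41-fold, and Fkbp14, a prolyl isomerase that acts on collagen, by 1.34-fold. The fibroblast markers given above were higher in the same sample, and their part in this was not tested.

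The machinery of entry into the endoplasmic reticulum had the narrowest spread among the further lists, with an SD of 0.17 between genes. Of 22 genes of the translocon, signal peptidase and oligosaccharyltransferase, 9 were lower and none reached 1.5-fold, with a median of 0.024. Ssr4 differed by -0.45, Spcs3 by -0.30 and Rpn2 by -0.28, and Spcs2, Ssr3 and Sec11a by 0.29, 0.18 and 0.17.

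Further degradation genes were spread more widely, with 11 of 21 lower and a median of -0.0043. Ubxn8, a membrane anchor of p97, stood at 48.7 in the OSU-HDAC42 sample and 151 in the vehicle sample (3.09-fold lower). Rhbdd1, a rhomboid protease, stood at 176 and 399 (2.26-fold lower), and Svip, an inhibitor of this degradation pathway, was 1.69-fold lower. Ube2g2, the ubiquitin-conjugating enzyme of the pathway, stood at 622 and 319 (1.95-fold higher), and its other probe set gave 1.16 on the log2 scale. Rnf5 was 1.41-fold and Nploc4 1.40-fold higher.

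Among the other sensors and regulators, 6 of 14 were lower, with a median of 0.12. Creb3l1, a relative of ATF6 known for its part in the secretion of collagen, stood at 147 in the OSU-HDAC42 sample and 64.4 in the vehicle sample, 2.28-fold higher. Eif2ak2, the kinase PKR that senses double-stranded RNA, was 1.48-fold and Rtcb, the ligase that joins spliced Xbp1 mRNA, 1.19-fold higher. Mbtps1, the site-1 protease that cuts ATF6, stood at 295 and 421 (1.43-fold lower), Atf6b was 1.30-fold lower and Creb3 1.13-fold lower.

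Other targets of ATF4 did not share the direction of the 6 members. Of 31 above the floor, 16 were lower and 15 higher, with a median of -0.0045. The lowest were Atf5 at 551 against 902 (1.64-fold), Phgdh, the first enzyme of serine synthesis (1.62-fold), and the cysteinyl-tRNA synthetase Cars1 (1.37-fold). For Cars1 the brightest probe set gave -0.45, but the 2 others above the floor gave only -0.12 and -0.038. The highest were Ddit4, an inhibitor of mTORC1 that also answers to glucocorticoids and hypoxia, at 551 against 314 (1.76-fold), Aldh18a1, an enzyme of proline synthesis (1.55-fold), and the amino acid transporter Slc7a5 (1.48-fold).

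Chaperones of the cytosol and of mitochondria had a median of -0.11, with 8 of 13 lower. Lonp1, a mitochondrial protease, was 1.65-fold lower, Hspa1a 1.25-fold and Trap1 1.22-fold. Hspa2 stood at 2228 against 1189 (1.87-fold higher), while Hspa4 and Hspe1 were 1.15-fold and 1.14-fold higher. The plot of all lists shows their medians between those of these chaperones and of the other sensors.

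**Figure D5:**
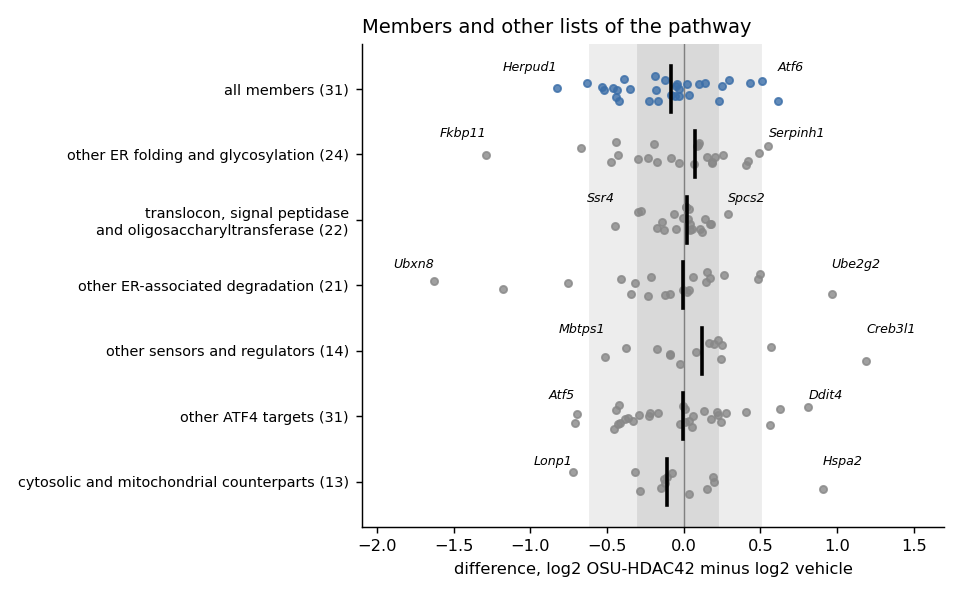
Log2 differences, OSU-HDAC42 minus vehicle, of the 31 members and of 6 other lists of the pathway, with the number of genes above the floor in brackets, black bars for medians and the lowest and highest gene named. The grey bands hold the middle 50% and 80% of all genes above the floor, and every median lies inside the inner band.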

How the data were processed

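The authors deposited 1 linear intensity for each probe set on each array, a unit read from the values themselves. The submitters' processing notes list GCOS and RMA without a version or a role. Any scaling between the arrays is not given in the sources used here. RNA was extracted with Trizol per the labels, whereas the design text has a column kit. Of 31099 probe sets, 57 controls were left out, and 20826 of the others had a single gene symbol in the platform annotation. Intensities under 16 were raised to 16, which touched no member, and log2 was taken. Difference always means log2 on the OSU-HDAC42 array minus log2 on the vehicle array. The expression floor is the median, across probe sets other than controls, of each one's geometric mean. A gene counts as past a fold when its difference reaches it and its higher array reaches the floor. Calculations used Python 3.11.15 with pandas 2.3.3. The calling step was tested on simulated data with far less noise than the spread between probe sets and larger folds than those of the members. That test checks the calculation and not the calls made here. All members are named in the text, and from each further list up to 3 genes above the floor with the largest differences in each direction. The members, lists and folds were chosen with earlier results of these data known. Promoter windows are from RefSeq on GRCr8.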

Additional observations from a re-analysis of the deposited data

How the results depend on the processing

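The alternatives were other values for raising low intensities, centring, quantile normalization, removal of a lowess trend, means over probe sets, and a higher floor. The count of members at least 1.5-fold lower was 2. It was 1 with the mean over all probe sets, 1 with the mean over those above the floor, and 1 with the floor at the 75th percentile. At 2-fold, a threshold that cannot raise the count, it was 0. Trib3 is the gene that left the count in the first 3 of these cases, in the last of them because its level is under that floor. The number of lower members ran from 19 to 21 of 31, and was 14 of 23 with the higher floor. Over the settings, 27 of 31 members kept their sign, 18 of them lower and 9 higher, and Canx, P4hb, Pdia3 and Pdia4 did not keep theirs. The median of members stayed below 0 in every setting. All 217 values of single members shifted by under 1 SD between probe sets. At least 1.5-fold higher was 1 member, with 2 under the mean over all probe sets and 0 under quantile normalization. Medians crossed 0 for other ATF4 targets (-0.068 to 0.017), other degradation genes (-0.027 to 0.049), the translocon list (-0.0025 to 0.045) and all further pathway genes (-0.0059 to 0.031), so their sign is not settled. No paired analysis was possible because the design holds 1 array per group. Precision is limited by the number of arrays, and the cause of these shifts was not tested.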

Other observations

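Aminoacyl-tRNA synthetases, many of them ATF4 targets, were grouped after their values were seen. Of 11 on the list of ATF4 targets, 8 (72.7%) were lower in the OSU-HDAC42 sample and 3 higher, with a median of -0.33 and none past 1.5-fold. Among all genes above the floor 52.8% were lower, with a median of -0.027. The list they were picked from had 16 of 31 lower and a median of -0.0045, so the grouping selects from its lower part. Each value is that of the brightest probe set, and for Cars1 the others above the floor gave only -0.12 and -0.038. Eprs1 stood at 1233 against 1657, Wars1 at 588 against 788, and Iars1 at 201 against 268, while Mars1 was higher at 2954 against 2608.

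Outside the members, 27 genes held an ERSE or ERSE-II in the same windows. Of these, 14 were above the floor, 7 lower and 7 higher, with a median of 0.036. They ran from -1.27 for Pan2, a subunit of a deadenylase, to 1.32 for Birc5, the mitotic regulator survivin. Zfand2a, a stress-induced regulator of the proteasome, differed by 0.45, and Nucb1, a calcium-binding protein of the Golgi that restrains ATF6, by -0.23.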
